A study of Mus musculus with 2 samples.

Results

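The anterior Hoxa genes Hoxa2, Hoxa3, Hoxa4, Hoxa5, Hoxa6 and Hoxa7 are the middle stretch of the mouse HoxA cluster on chromosome 6. They were taken by gene symbol, 6 of 21951 protein-coding genes of the GENCODE M21 annotation, and described through the open chromatin regions that touched a gene body or the 2 kb upstream of it. These came to 18 regions, which held 18 of 159560 peaks called in the Enl-WT library and 15 of 130027 called in the Enl-T1 library. The data were single-nucleus ATAC-seq of whole mouse kidneys at E15.5, an assay in which a transposase cuts accessible DNA and the cuts are counted per nucleus. There was 1 library per genotype and no replicate, so no test between genotypes could be made, and every interval given here is a 95% interval that covers counting error only.

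Enl-WT kidneys were Enl+/+ Wt1GFPCre/+, and Enl-T1 kidneys were Enl flox-T1/+ Wt1GFPCre/+. Both groups, the controls included, therefore carried the Wt1GFPCre allele, which takes the place of one copy of Wt1. In Enl-T1 kidneys the Cre recombinase, driven from the Wt1 locus in nephron and stromal progenitors and their descendants, turned an inverted exon of one Enl allele into the T1 form (p.117_118insNHL), a Wilms tumour insertion in the acyl-lysine reading YEATS domain of ENL. The study places endothelial and ureteric cells outside the reach of this Cre. The insertion itself leaves no trace in peak counts, so the genotype labels could not be checked here, and the number and sex of the embryos behind each library were not given in the sources used here.

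Hox genes encode homeodomain transcription factors that assign position along the head-to-tail axis, and their order on the chromosome follows the order in which they are used along that axis. Polycomb proteins keep the clusters compact where the genes are silent, while the MLL/Trithorax machinery, with which ENL works in transcription elongation, keeps them open where they are used. In the metanephric kidney the best known Hox role belongs to the posterior Hoxa11 and its paralogues, which are needed for outgrowth of the ureteric bud. The anterior genes are better known for the hindbrain and neck (Hoxa2, Hoxa3), the cervical and thoracic skeleton (Hoxa4, Hoxa5, Hoxa6, Hoxa7) and the lung (Hoxa5), and in the kidney they are expressed over a broad background of mesodermal cells.

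All 6 genes lie on the minus strand, with Hoxa2 nearest the low-coordinate end (mm10). Hoxa2 (ENSMUSG00000014704.10) spans chr6:52162417-52164831 and Hoxa4 (ENSMUSG00000000942.10) spans chr6:52189671-52191753. Hoxa5 (ENSMUSG00000038253.6) spans chr6:52201754-52204587, Hoxa6 (ENSMUSG00000043219.9) spans chr6:52206288-52208722 and Hoxa7 (ENSMUSG00000038236.8) spans chr6:52214491-52221854. Hoxa3 (ENSMUSG00000079560.13) is annotated over chr6:52169062-52213336, 44275 bp in which Hoxa4, Hoxa5 and Hoxa6 are nested. It consequently touched 14 of the 18 regions, and the regions of Hoxa4, Hoxa5 and Hoxa6 counted for Hoxa3 as well. Other annotated transcripts, Hoxaas3, Gm28308, Gm15050, Gm29430 and 5730596B20Rik, cross the same ground. ATAC-seq carries no strand, so a region's signal could not be given to one of these transcripts. The regions are numbered R1 to R18 from Hoxa2 toward Hoxa7.

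The sequences below are those the description turns on, from the mm10 assembly. Promoters, 250 bases before and 50 after the start, came from RefSeq (GRCm38.p6) for 5 of the 6 members, Hoxa4 being the one without an entry. Capitals mark matches on either strand to the letters of a HOX-PBX site (TGATTNAT), a posterior Hox site (TTTATNG) or a Meis site (TGACAG). The Hoxa2 promoter (chr6:52164782-52165081, minus strand) is shown because it held a HOX-PBX and a Meis match and yet lay in no called region of either library. The Hoxa5 promoter (chr6:52204538-52204837, minus strand) lay in R12, which had the largest ratio among the starts of the members. The Hoxa6 promoter (chr6:52208623-52208922, minus strand) lay in a region called in Enl-WT alone. The central 300 bases of R5 (chr6:52183281-52183580, plus strand) come from the region whose level was highest in proximal tubule nuclei, and the last stretch is 300 bases of R18 just outside the annotated far end of Hoxa7 (chr6:52221855-52222154, plus strand), the region that fell furthest.
Hoxa2 promoter: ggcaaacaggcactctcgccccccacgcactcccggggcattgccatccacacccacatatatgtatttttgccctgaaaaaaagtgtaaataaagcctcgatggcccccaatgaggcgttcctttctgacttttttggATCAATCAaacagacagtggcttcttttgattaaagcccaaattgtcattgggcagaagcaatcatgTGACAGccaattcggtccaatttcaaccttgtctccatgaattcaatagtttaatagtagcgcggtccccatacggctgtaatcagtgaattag
Hoxa5 promoter: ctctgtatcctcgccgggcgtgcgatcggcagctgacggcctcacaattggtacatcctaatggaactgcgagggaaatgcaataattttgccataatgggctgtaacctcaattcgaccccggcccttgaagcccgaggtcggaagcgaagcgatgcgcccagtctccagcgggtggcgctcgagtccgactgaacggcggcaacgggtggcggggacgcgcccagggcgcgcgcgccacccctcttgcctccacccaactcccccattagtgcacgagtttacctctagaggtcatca
Hoxa6 promoter: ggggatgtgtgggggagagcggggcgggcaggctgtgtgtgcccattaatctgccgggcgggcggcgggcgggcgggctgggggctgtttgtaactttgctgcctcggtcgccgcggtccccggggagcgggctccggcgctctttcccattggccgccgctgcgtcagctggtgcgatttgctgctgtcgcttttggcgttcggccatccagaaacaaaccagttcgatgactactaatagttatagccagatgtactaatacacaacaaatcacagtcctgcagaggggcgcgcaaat
R5 centre: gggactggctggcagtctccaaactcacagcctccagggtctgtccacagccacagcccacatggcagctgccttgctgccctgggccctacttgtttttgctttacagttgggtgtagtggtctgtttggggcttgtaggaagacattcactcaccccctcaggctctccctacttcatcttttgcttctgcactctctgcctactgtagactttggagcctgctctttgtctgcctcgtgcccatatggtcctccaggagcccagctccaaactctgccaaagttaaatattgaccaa
R18 outer end of Hoxa7: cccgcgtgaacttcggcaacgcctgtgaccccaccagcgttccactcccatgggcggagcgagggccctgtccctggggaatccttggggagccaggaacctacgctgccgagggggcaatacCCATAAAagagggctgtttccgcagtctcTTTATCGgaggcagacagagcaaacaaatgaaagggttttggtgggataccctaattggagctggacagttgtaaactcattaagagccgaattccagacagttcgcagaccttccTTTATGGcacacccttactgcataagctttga

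The Hoxa2 promoter had a GC content of 45.7%, against 61.7% for Hoxa5 and 62% for Hoxa6. The Hoxa5, Hoxa6 and Hoxa7 promoters held no match to any of the motifs searched, and the Hoxa3 promoter, in R15, held 1 Meis match. Over the whole regions, the HOX-PBX letters occurred in 3 of 18 (R1, R3 and R6) and the Meis letters in 8 of 18, and for reference they were found in 14.9% and 51.2% of the central 900 bases of 110621 shared regions. The posterior Hox letters occurred in 10 of 18 regions against 37.6% of those windows, with 4 matches in R10 and 3 in R18, and in R3 a match overlapped one of the HOX-PBX letters. In windows of the same 900 bases at the centres of the member regions the counts were again 3 (HOX-PBX), 8 (Meis) and 10 (posterior Hox) of 18. The differences from the background shares were not tested. The core of the CTCF site, the factor that sets boundaries inside Hox clusters, was matched in R17 alone among the members and in 9.08% of shared windows. A direct repeat of the retinoic acid response type was matched in no member region and in 0.268% of shared windows. Among 32817 RefSeq promoters of the same length the HOX-PBX letters occurred in 3.22%, the posterior Hox letters in 10.9%, the Meis letters in 19.2%, the CTCF core in 3.43% and the direct repeat in 0.0762%. A letter match is a description of sequence and says nothing of binding.

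After barcodes with fewer than 2000 or more than 100000 counts in peaks were left out, 9472 of 9628 Enl-WT and 12635 of 13376 Enl-T1 barcodes remained, at medians of 14789.5 and 8753 counts. The Enl-WT library was therefore the deeper one, and 149 barcode sequences were held by nuclei of both libraries. Nuclei were clustered without the regions of the 4 Hox clusters, so that the members played no part in their own grouping. Clusters were named by marker genes. The markers put Foxd1 at 40.8 and 40.0 CPM (counts scaled to an equal total in shared regions, Enl-WT then Enl-T1) in stromal nuclei, Ret at 48.9 and 48.6 in ureteric nuclei, and Cdh5 at 98.5 and 71.5 in endothelial nuclei. The clusters that scored highest for nephron progenitor markers were 0, 1 and 15, called the progenitor-scored clusters from here on. They held 1931 Enl-WT and 4291 Enl-T1 nuclei but split by genotype, cluster 1 having 1841 and 104 nuclei and cluster 0 having 1 and 3845. Six2, which keeps nephron progenitors renewing, stood at 70.5 CPM in cluster 1 of Enl-WT and 56.7 in cluster 0 of Enl-T1, against 13.1 and 13.3 in stroma. Umod, a product of the thick ascending limb, led cluster 1, at 23.3 CPM against 5.9 in cluster 0. The progenitor markers summed to 382 CPM in cluster 1 of Enl-WT and 313 in cluster 0 of Enl-T1, and the early nephron markers to 290 and 380. These differences move with genotype beside every value for the progenitor-scored clusters, and their part in those values was not tested.

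All members but Hoxa6 had at least 1 region shared between the libraries, and the 14 shared regions set together give the level of the group. In Enl-WT the level was 368.0 CPM (359.0 to 377.1) in stroma, 302.5 (288.0 to 317.8) in endothelium and 293.5 (284.5 to 302.7) in the progenitor-scored clusters. Proximal tubule (280.9), early nephron (280.0), distal tubule or loop (261.1) and podocyte nuclei (259.5) followed, each overlapping the next. Immune nuclei stood at 135.6 CPM (103.3 to 175.0) and ureteric epithelium at 109.2 (101.1 to 117.6). Stroma was thus set apart at the top, and immune and ureteric nuclei were set apart at the bottom, while the neighbours between them did not differ beyond counting error.

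The Enl-T1 library gave nearly the same order. Stroma stood at 384.1 CPM, smooth muscle or ureteric stroma at 379.7, the progenitor-scored clusters at 333.7 (325.8 to 341.8) and endothelium at 320.7. Early nephron nuclei stood at 310.0 and distal nuclei at 277.5, with ureteric epithelium at 115.5 (108.0 to 123.4) and immune nuclei at 114.2. Ureteric epithelium lay below stroma by a log2 ratio of −1.75 (−1.86 to −1.63) in the Enl-WT library and of −1.73 (−1.83 to −1.63) in the Enl-T1 library, so the gap between these classes was alike in size in both genotypes. When every nucleus was thinned to 4000 counts, a count in any member region was found in 67.5% and 65.8% of stromal nuclei and in 28.9% and 27.3% of ureteric nuclei (Enl-WT and Enl-T1). Without thinning these shares were 84.5% and 72.9% in stroma and 45.9% and 35.6% in ureteric nuclei, higher in the deeper library in each class.

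**Figure D1:**
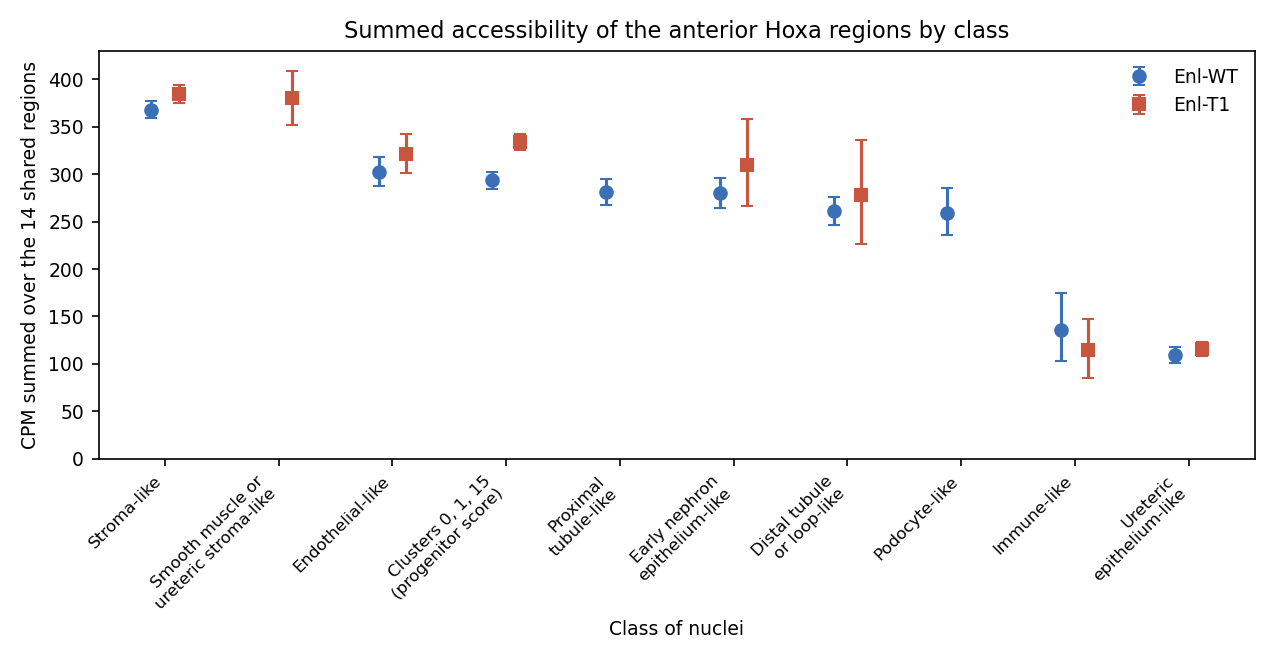
Levels of the anterior Hoxa genes by nuclei class (CPM over the shared regions, with 95% counting intervals) in the Enl-WT and Enl-T1 libraries, 1 library each. Stroma lies highest in Enl-WT, at 368.0 CPM, and ureteric epithelium lies near the bottom of both, at 109.2 and 115.5 CPM.

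Within the group the genes did not share one order of classes. Hoxa2, a hindbrain and second pharyngeal arch gene, was highest in stroma of Enl-WT, at 21.5 CPM against 12.2 in the next class, and lowest in immune and ureteric nuclei, at 3.4 and 3.5. Hoxa3, whose loss affects the thymus and parathyroid, was also highest in stroma (259.9 CPM), ahead of endothelium (234.2), and ureteric epithelium held 85.0. Its regions are mostly those inside the long transcript, including the starts of its nested neighbours.

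Hoxa4 read differently, with 48.3 CPM (29.9 to 73.8) in immune nuclei and 45.8 in the progenitor-scored clusters of Enl-WT, and 69.3 in the progenitor-scored clusters of Enl-T1. The immune interval is wide and overlapped those of several classes. Hoxa5, a regulator of lung and neck mesenchyme, was highest in endothelium of both libraries, at 32.9 CPM (Enl-WT) and 31.3 CPM (Enl-T1), with stroma next in Enl-WT (26.4 CPM) and smooth muscle or ureteric stroma (29.4 CPM), then stroma (28.3 CPM), in Enl-T1, each overlapping the endothelial interval. Hoxa7 was highest in stroma (86.7 CPM) and in the progenitor-scored clusters (81.9) of Enl-WT, and lay at 20.6 in ureteric epithelium.

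Single regions were more selective than genes. R5 (chr6:52183063-52183798) overlaps a Hoxa3 exon, lies within 1 kb of a Hoxa3 start and holds the start of Gm29430. It was called in Enl-WT alone and peaked in proximal tubule nuclei, at 42.1 CPM per kb (36.0 to 49.0). Distal nuclei held 19.8 CPM per kb at R5, early nephron nuclei 14 and the progenitor-scored clusters 5.1, and no other class passed 7.4. R4 (chr6:52176805-52177712), an intronic region of Hoxa3 at the start of 5730596B20Rik, had a similar lean, at 38.6 CPM per kb in proximal, 30.6 in podocyte and 30.5 in early nephron nuclei against 8.0 in endothelium.

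R17 (chr6:52218452-52219250), which covers the RefSeq promoter of Hoxa7, had a different order of classes. Its level in Enl-WT was 23.0 CPM per kb in the progenitor-scored clusters and 23.5 in distal nuclei, against 8.7 in stroma, 4.8 in endothelium and 2.8 in podocytes. Stroma, the class with the highest level over all the members, was therefore not high at every region. The heat map of Enl-WT levels shows these regions beside the rest.

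**Figure D2:**
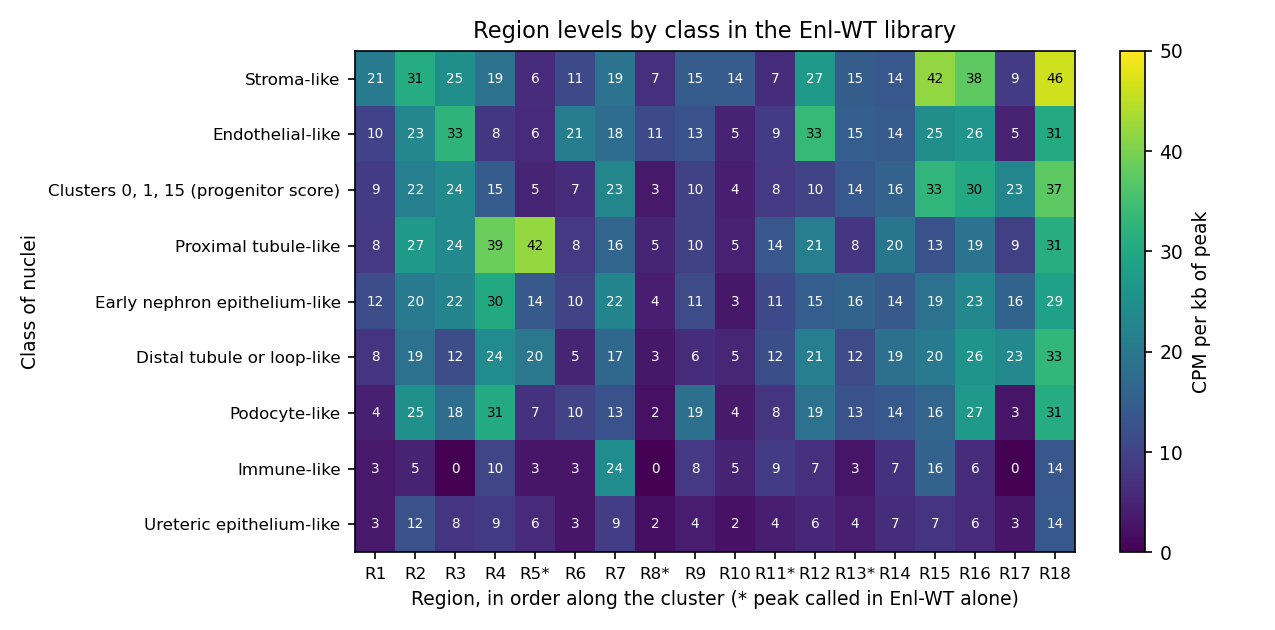
Heat map of Enl-WT levels (CPM per kb of peak) of the 18 regions, in order along the cluster, by nuclei class. R5 is brightest in proximal tubule nuclei at 42.1 CPM per kb, and the ureteric epithelium stays low across the cluster.

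The 4 regions without an overlapping Enl-T1 peak were R5, R8, R11 and R13. Across the whole series 30% of Enl-WT peaks overlapped no Enl-T1 peak, while 13.4% of Enl-T1 peaks overlapped no Enl-WT peak, so 4 of 18 is no more than the background, and 0 of the 15 Enl-T1 peaks at the members lacked an Enl-WT partner. R13 (chr6:52208503-52209293), over the start of Hoxa6, was the only region of that gene, so Hoxa6 had a level in Enl-WT alone and no ratio. It stood at 15.9 CPM per kb in early nephron, 15.0 in endothelial, 14.8 in stromal and 13.9 in progenitor-scored nuclei, and at 4.1 in ureteric epithelium. R8 (chr6:52194462-52195152), in an intron of Hoxa3, reached 11.3 CPM per kb in endothelium, and R11 (chr6:52202773-52203569), over an exon of Hoxa5, reached 13.6 in proximal nuclei. Peaks were called per library, the Enl-T1 library was shallower, and it held 43 proximal and 0 podocyte nuclei, so a missing peak, fewer nuclei and less accessible DNA cannot be told apart.

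The comparison of genotypes asks whether the chromatin of these genes was more open where the mutant was made. It was made in the progenitor-scored clusters and the stroma, which the Cre reaches, and in the ureteric epithelium and endothelium, which it does not. Ratios are log2 of Enl-T1 over Enl-WT CPM, and a region was called where its ratio was at least 0.5 in size and the class held 200 or more counts at it over both libraries. In the progenitor-scored clusters the group rose from 293.5 to 333.7 CPM, a log2 ratio of 0.19 (0.13 to 0.24). The regions called higher lay in the middle of the stretch, around Hoxa4 and Hoxa5, while at the ends R1 had an interval that included 0 and R18 was lower.

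R7 (chr6:52190481-52192495), which covers the start of Hoxa4, went from 45.8 to 69.3 CPM, a log2 ratio of 0.60 (0.46 to 0.74). R10 (chr6:52199912-52201495), over an exon of Hoxa3 and a start of the antisense Hoxaas3, went from 6.18 to 15.90 CPM, a log2 ratio of 1.36 (1.01 to 1.73). R12 (chr6:52204026-52205033), over the start of Hoxa5, went from 10.0 to 20.4 CPM, a log2 ratio of 1.02 (0.74 to 1.31). These 3 regions, which span the starts of Hoxa4 and Hoxa5, were the ones called higher.

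R18 (chr6:52221458-52222329), at the far annotated start of Hoxa7, was the 1 region called lower, from 31.8 to 21.1 CPM, a log2 ratio of −0.59 (−0.79 to −0.40). The other starts of Hoxa7 went the other way, R16 from 32.8 to 38.9 CPM (0.25, 0.08 to 0.42) and R17 from 17.3 to 22.6 CPM (0.38, 0.15 to 0.62). Over its regions Hoxa7 stood at 81.9 and 82.6 CPM, a log2 ratio of 0.01 (−0.10 to 0.12), a level that hides unequal change among its starts.

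At the Hoxa2 end R1 (chr6:52163456-52164509), over an exon of Hoxa2, held 9.16 and 7.97 CPM, a log2 ratio of −0.20 (−0.54 to 0.16). R2 (chr6:52171738-52173230), over a Hoxa3 exon, fell from 31.3 to 22.8 CPM (−0.46, −0.65 to −0.26), and R3 (chr6:52175058-52176321) from 29.1 to 24.2 (−0.27, −0.46 to −0.07). R15 (chr6:52212960-52213837), at the far start of Hoxa3, rose from 28.8 to 37.2 CPM (0.37, 0.19 to 0.55). Hoxa3 summed over its 10 shared regions, those of Hoxa4 and Hoxa5 included, went from 202.5 to 243.2 CPM, a log2 ratio of 0.26 (0.20 to 0.33). In all, 7 intervals lay above 0, 3 lay below it and 4 included it. Counts of intervals clear of 0, here and below, were not made over all regions or genes, so they have no background.

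The calls have to be read against all shared regions. Of 75230 regions with 200 or more counts in the progenitor-scored clusters, 13.6% were called higher and 15.1% lower, 28.6% in all, so 3 higher and 1 lower of 14 is not more calls than the background. Near gene starts, where regions varied less, the shares were 4.14% higher and 7.26% lower, and of the 11 member regions within 2 kb of a protein-coding start 2 were called higher and 1 lower. The median ratio of the 14 was 0.246 against 0.0048 over all the regions. As genes, Hoxa4 and Hoxa5 were past 0.5, where 2.24% of 16324 protein-coding genes were higher and 3.15% lower.

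**Figure D3:**
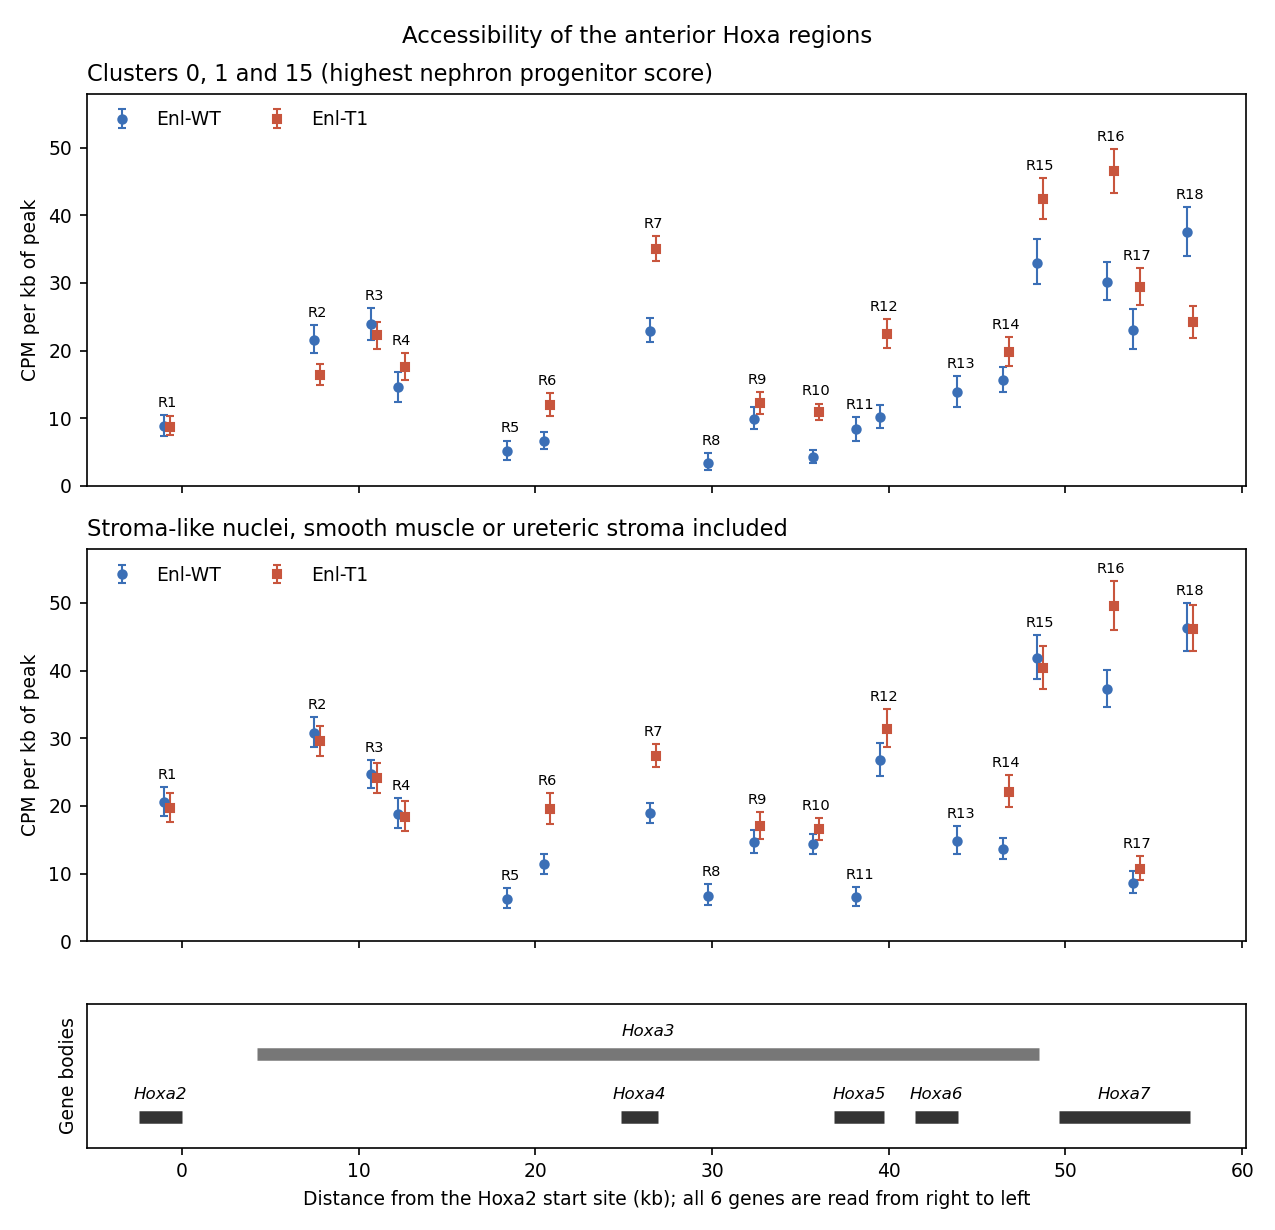
Levels of the 14 shared regions in the Enl-WT and Enl-T1 libraries (CPM per kb of peak with 95% counting intervals), by position along the cluster. The progenitor-scored clusters and the stroma are shown, and regions called in Enl-WT alone have an Enl-WT point. At R10 and R12 in the progenitor-scored clusters the Enl-T1 points lie above the Enl-WT points with no overlap of intervals. At R12 they stand at 22.5 and 10.2 CPM per kb.

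Because the peaks were called separately, a region could gain counts from a wider peak. The 14 shared regions covered 16090 bp of Enl-WT peaks but 14552 bp of Enl-T1 peaks. The Enl-WT peak was the wider one in 10 of them, most of all at R6, R14 and R16. Over all 110706 shared regions the Enl-WT peak was the wider one in 76106, with 114799063 bp of Enl-WT and 103221371 bp of Enl-T1 peaks. Narrower Enl-T1 peaks were therefore common to the whole series, and ratios per kb of peak lean upward across it. Per kb of peak the ratios in the progenitor-scored clusters were 0.86 at R6, 0.34 at R14 and 0.62 at R16 in place of 0.38, −0.22 and 0.25. On that scale 5 regions were called higher and 1 lower, but no share over all regions was computed on it. R7, R10, R12 and R18 had peaks of nearly equal width in both libraries. R10 was called as 2 peaks in Enl-T1, counted together.

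The same comparison was set within clusters. Between cluster 1 of Enl-WT and cluster 0 of Enl-T1, which hold most of these nuclei, Hoxa4 gave 0.62 (0.48 to 0.76), Hoxa5 1.00 (0.71 to 1.31) and R18 −0.64 (−0.84 to −0.43) on the log2 scale. In cluster 15, with 89 Enl-WT and 342 Enl-T1 nuclei, Hoxa5 gave 1.5 (0.27 to 3.04) and Hoxa4 0.59 (−0.08 to 1.25). The progenitor name of cluster 15 was the weakest, at a score of 0.46 with stroma next at 0.25. Clusters 0 and 1 scored 0.54 and 0.85. Within cluster 1, where 104 Enl-T1 nuclei lay, Hoxa5 gave 0.07 (−1.57 to 1.33), Hoxa4 0.23 (−0.37 to 0.82) and Hoxa7 −0.58 (−1.20 to −0.02). Of the clusters that held nuclei of both genotypes, cluster 15 thus had an interval above 0 at Hoxa5 and cluster 1 did not, and the wide interval of cluster 1 still included the 1.00 of the first pair. The naming of the clusters bears on these values. With doublet-like nuclei removed, 3539 of the 4291 Enl-T1 nuclei took the early nephron name and 103 kept the progenitor name, and the group ratio in progenitor-named nuclei was −0.17 (−0.44 to 0.09). In those nuclei Hoxa5 gave 0.10 (−1.54 to 1.37) and Hoxa4 0.25 (−0.35 to 0.84), so neither was past 0.5. At a Leiden resolution of 0.5, 4164 of them were unnamed and 123 kept the name, and the ratio was 0.03 (−0.20 to 0.24). With early nephron clusters added the ratios were 0.23 (0.17 to 0.28) and 0.05 (−0.11 to 0.21), and 0.20 (0.15 to 0.25) at the settings used throughout. Fewer open alleles per nucleus and fewer nuclei of an open kind cannot be told apart in these sums.

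In stroma, the other class the Cre reaches, with the smooth muscle cluster counted in it, the group differed little. It went from 366.7 to 383.7 CPM, a log2 ratio of 0.07 (0.02 to 0.11). The start of Hoxa4 (R7) was the exception, rising from 37.6 to 54.1 CPM (0.52, 0.38 to 0.67), and it was the 1 region called higher of 14, with 0 lower, where 9.83% and 8.18% of all shared regions were called. R12 over Hoxa5 held 26.4 and 28.4 CPM (0.11, −0.08 to 0.29) and R18 39.3 and 40.3 (0.04, −0.12 to 0.19), so the rise at Hoxa5 and the fall at R18 in the progenitor-scored clusters had no counterpart of that size here. R10 gave 0.22 (0.01 to 0.42), and R1 over Hoxa2 fell from 21.2 to 17.8 CPM (−0.25, −0.47 to −0.03).

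The ratio at Hoxa4 was uneven among the stromal clusters. It was 0.71 (0.40 to 1.02) in cluster 3 and 0.33 (0.02 to 0.65) in cluster 2, but 0.02 in cluster 5 and −0.30 (−0.70 to 0.10) in cluster 9. Cluster 7 (2 Enl-WT and 1039 Enl-T1 nuclei) and cluster 13 (29 and 553) were nearly all Enl-T1, so composition moves with the stromal sum. Without them R7 was not called, and 0 of the 14 regions were.

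The same ratios were taken in the classes that the study places outside the reach of the Cre. In endothelium the group gave 0.08 (−0.03 to 0.20), and R7 again rose, from 35.8 to 52.0 CPM (0.54, 0.22 to 0.85). It was the 1 region called higher of 10 with enough counts, and R6 (−0.51, −1.02 to −0.04) the 1 called lower, where 2.21% and 10.4% of shared regions were called. R17 at Hoxa7 had a larger ratio, 1.15 (0.25 to 2.13), from 3.58 to 7.91 CPM, but its 85 counts were too few for a call. In ureteric epithelium the group gave 0.08 (−0.06 to 0.23), R7 0.33 (−0.01 to 0.70), all 14 intervals included 0, and 0 of 5 regions with enough counts were called either way, against 5.57% higher and 4.32% lower over all the regions.

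R7 at the start of Hoxa4 was higher in Enl-T1 in endothelium too. Its interval there overlapped those of stroma and the progenitor-scored clusters, and the cause was not tested. With median-of-ratios or TMM scaling the endothelial group ratio was −0.084 or −0.064 and R7 was not called there. Over all shared regions with enough counts in endothelium, however, the median ratio was −0.119 and 32.9% were above 0. The endothelial class included the shallow cluster 14, with 181 Enl-WT and 358 Enl-T1 nuclei. Its endothelial score of 0.84 stood beside an immune score of 0.65, and without it R7 was not called either. The endothelial ratio at R7 stayed above 0 in 14 of 14 alternatives (0.30 to 0.55). The ratios at R10 and R12 were 0.19 (−0.63 to 0.95) and −0.07 (−0.45 to 0.30) in endothelium and −0.05 (−0.93 to 0.84) and 0.27 (−0.37 to 0.92) in ureteric epithelium. At R10 both of these intervals ended below that of the progenitor-scored clusters (1.01 to 1.73). At R12 (0.74 to 1.31) the endothelial one did and the ureteric one overlapped it. R10 held only 126 counts in endothelium and 96 in ureteric epithelium, too few for a call in either class. R12 also had too few in ureteric epithelium, with 178 counts, but enough in endothelium, with 536. The differences between classes themselves were not tested.

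**Figure D4:**
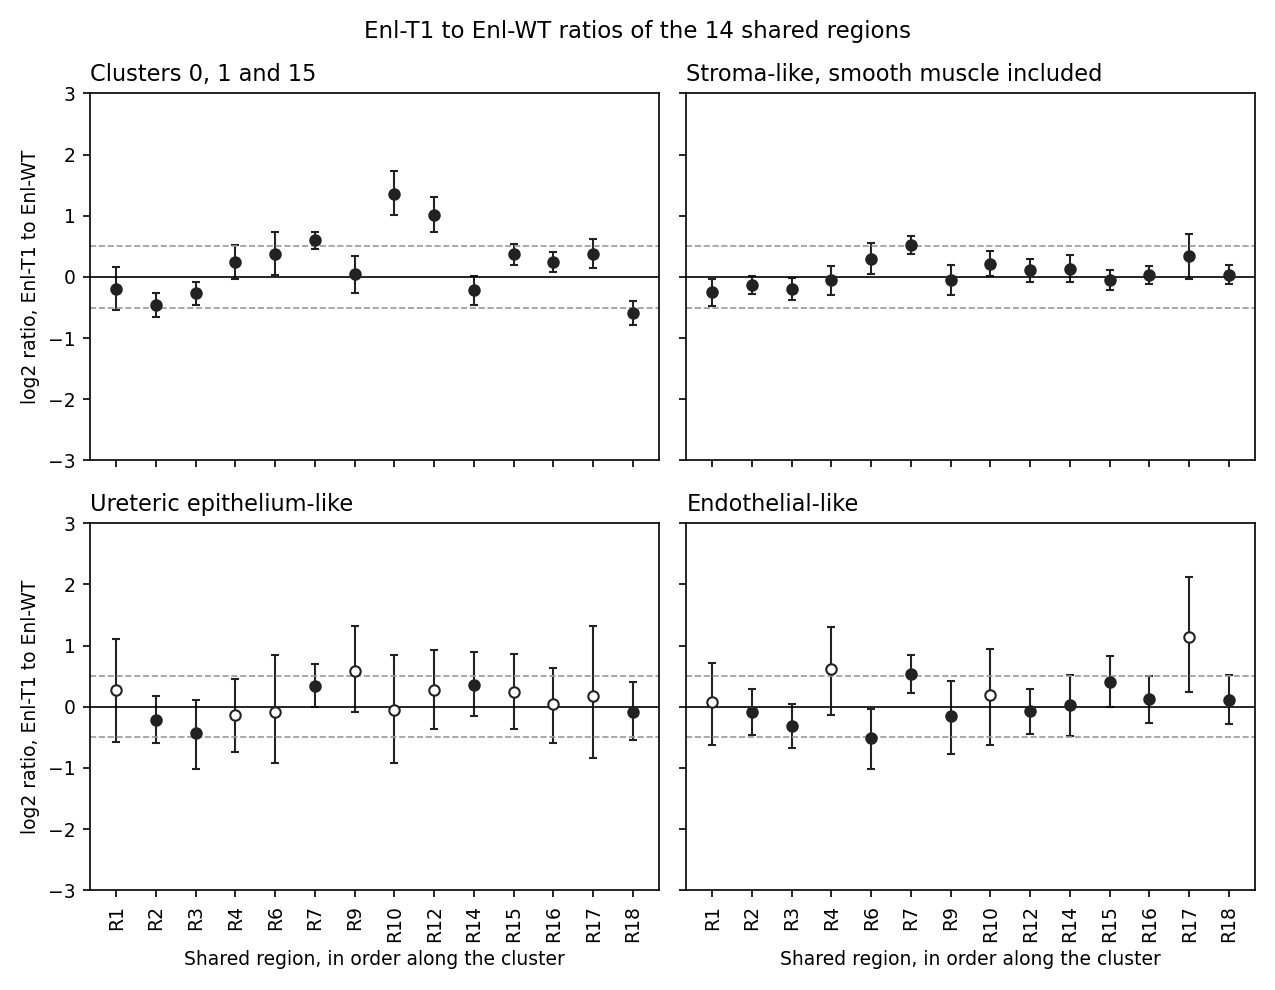
Log2 ratio of Enl-T1 to Enl-WT at the 14 shared regions, evenly spaced in order along the cluster, with 95% counting intervals, for the 4 classes compared. R7 lies above 0 in the progenitor-scored clusters, stroma and endothelium (0.60, 0.52 and 0.54), and R10 and R12 reach 1.36 and 1.02 in the progenitor-scored clusters.

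The neighbours along the cluster did not move as one block. In the progenitor-scored clusters Hoxa9 gave 0.02, Hoxa10 −0.18, Hoxa11 0.24 (0.08 to 0.40) and Hoxa13, at the posterior end, 0.87 (0.59 to 1.18), from 9.90 to 18.1 CPM. The 6 posterior regions outside the members had 1 called higher and 1 lower, where 13.6% and 15.1% of all shared regions were, with a median of 0.126. The flanking genes Skap2 and Hibadh gave 0.20 and −0.00. Evx1 had no shared region.

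Among 11 paralogues of groups 2 to 7 in the other Hox clusters, 6 gene intervals lay above 0 and 1 below in the progenitor-scored clusters. Hoxd4 was past 0.5, from 86.4 to 130 CPM (0.59, 0.49 to 0.69), and Hoxb7, a gene of the ureteric bud lineage, fell from 43.2 to 23.3 CPM (−0.89, −1.07 to −0.72). At the level of regions, 12 of 35 were called higher and 1 lower, where 13.6% and 15.1% of all shared regions were. Higher calls were thus more frequent here than over all regions. The median was 0.237, close to the 0.246 of the anterior Hoxa regions, of which 3 of 14 were called higher. In stroma 1 of the 35 was called higher and 2 lower, where 9.83% and 8.18% of all shared regions were. Hoxd3 and Hoxd4 share regions, as Hoxc4, Hoxc5 and Hoxc6 do, so these counts are not of separate genes.

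Genes of proteins known to act on Hox chromatin stayed within a log2 ratio of 0.5, as most genes did. In the progenitor-scored clusters 2.24% of 16324 protein-coding genes were past it higher and 3.15% lower, so the counts below do not differ from the background. In the progenitor-scored clusters none of 12 Polycomb genes, among them Ezh2 and Suz12 of the methylating complex, was past 0.5, with a median of 0.058 and 1 interval above and 3 below 0. None of 9 Trithorax and elongation genes was past 0.5 either, with a median of 0.068 and 4 intervals above and 1 below 0. The highest were the elongation partners Mllt3 at 0.35 (0.27 to 0.44) and Aff1 at 0.32 (0.26 to 0.39), both above the group ratio of the anterior Hoxa genes, and the H3K79 methyltransferase gene Dot1l was the one below 0, at −0.20 (−0.33 to −0.07). The boundary genes Ctcf, Rad21 and Maz were likewise all within 0.5. These are accessibility values of the genes and not amounts of the proteins.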

How the data were processed

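Nuclei of E15.5 kidneys were profiled with a 10x Genomics ATAC kit, 1 library per genotype. The authors deposited, per library, peaks and counts of transposase cut sites per peak and barcode, made with Cell Ranger ATAC 2.1.0 on mm10 per the labels. Peaks were called in each library separately, and raw counts were used as deposited. The study's later filters need fragments and were not applied here.

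A barcode was kept if its peaks held between 2000 and 100000 counts. Peaks overlapping by at least 1 bp were joined into 110706 shared regions, and 110506 of them, outside the 4 Hox clusters and 50 kb on either side, entered latent semantic indexing (30 components, 15 neighbours) and Leiden clustering (resolution 1). Clusters were named from marker lists. Doublets were treated only as an alternative. Counts were summed per library and class, scaled to CPM over shared regions and, since each fragment gives 2 cut sites, halved for exact Poisson and conditional binomial intervals at 95%, which cover counting error only. There is no replicate, so no p-value is given. The ratio code was tested on simulated data.

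All 6 members and each of their shared regions are named, with cluster neighbours, paralogues and Hox chromatin regulators. The members and lists were chosen with earlier results of these data known. Alternatives covered scaling, peak overlap, regions near starts, thinning, count minimum, doublets, clustering and naming. The 5 genes of like pattern had the highest Pearson correlation with the members over 17 class levels, among genes with at least 2000 counts. Python 3.11.15, NumPy 2.4.6, pandas 2.3.3, SciPy 1.17.1, scikit-learn 1.9.0, python-igraph 0.11.9, leidenalg 0.10.2 and matplotlib 3.10.9 were used.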

Additional observations from a re-analysis of the deposited data

Results flagged for a closer look

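R6, which covers a start of Hoxa3 inside its long transcript (chr6:52184860-52186098), had intervals on opposite sides of 0 in different classes. Its log2 ratio of Enl-T1 to Enl-WT was 0.38 (0.03 to 0.73) in the progenitor-scored clusters and 0.30 (0.05 to 0.56) in stroma, but −0.51 (−1.02 to −0.04) in endothelium. The difference between the classes was not tested. The Enl-WT peak at R6 was 1157 bp wide and the Enl-T1 peak 829 bp, and per kb of peak the ratios were 0.86, 0.78 and −0.03.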

How the results depend on the processing

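The alternatives gave 63 group ratios, of which 45 stayed within counting error of the reported value, and 6 had the opposite sign, 2 of them against a reported interval clear of 0. For the genes 252 of 285 stayed and 41 had the opposite sign, 2 against a clear interval. For the regions 707 of 758 stayed and 71 had the opposite sign, 7 against a clear interval, and 77 of 106 counts of called regions stayed. Where a value moved, the cause was not tested. In the progenitor-scored clusters the group ratio of 0.19 became 0.11 at a reciprocal peak overlap of 80%, 0.31 within 1 kb of a member start, 0.33 per kb of peak, 0.061 as a share of thinned nuclei, 0.029 at a Leiden resolution of 0.5, 0.32 within cluster 15, 0.054 with early nephron clusters added at a resolution of 0.5, and −0.17 without doublet-like nuclei. Under the last of these, and at a resolution of 0.5, 103 and 123 of 4291 Enl-T1 nuclei kept the progenitor name. Without doublet-like nuclei Hoxa3 gave −0.071, R3 0.21, R6 −1.24 and R16 −1.18. At a resolution of 0.5 R3 gave 0.39, R6 −0.83 and R16 −0.95, and within cluster 15 R6 gave −0.045. The 3 regions called higher became 5 per kb, 1 within cluster 15 and 5 with early nephron clusters added. No share over all regions was computed for the counts of calls under the alternatives. The 1 called lower became 0 at a minimum of 5000 counts, with a naming lead of 0.2, within cluster 15 and with early nephron clusters added, 2 after mutual nearest neighbour correction and 4 without doublets or at a resolution of 0.5. Hoxa4 kept its sign in 16 of 16 alternatives (0.24 to 0.62), Hoxa5 was at least 0.5 in 15 of 16 (0.10 without doublet-like nuclei to 1.5 within cluster 15), R10 in 14 of 14 (0.70 to 1.8), and R18 was at most −0.5 in 12 of 16 (−1.08 to −0.18). In stroma the group ratio of 0.07 became 0.0074 at 80% overlap, 0.13 within 1 kb of a start, 0.21 per kb, −0.034 as a thinned share (Hoxa3 −0.010) and 0.010 without clusters 7 and 13, and the 1 region called higher became 3 per kb and 0 with median-of-ratios or TMM scaling, at 80% overlap or without clusters 7 and 13. In ureteric epithelium the group ratio became −0.082 as a thinned share, 1 region was called higher per kb, and 1 was called lower with median-of-ratios or TMM scaling. In endothelium the group ratio became −0.084 with median-of-ratios and −0.064 with TMM scaling, 0.23 per kb and −0.040 at a minimum of 5000 counts. There the 1 region called higher became 3 per kb and 0 with either scaling, at a minimum of 5000 counts, with a naming lead of 0.2 or without the shallow cluster 14, and the 1 called lower became 0 at 80% overlap, per kb, without doublets and at a resolution of 0.5 or 2. The ureteric to stromal ratio became −1.94 (Enl-WT) and −1.95 (Enl-T1) without doublets, and −1.59 and −1.60 in Enl-T1 at a resolution of 0.5 and after mutual nearest neighbour correction. R6, R10, R14 and R16 have no value at 80% overlap. The within-cluster, per-kb, early nephron, cluster 7 and 13 and cluster 14 alternatives were chosen after seeing the data. No paired analysis was possible because there was 1 library per genotype, and for the same reason no library could be left out. Depth left 9 of 14 regions in ureteric epithelium and 4 of 14 in endothelium with fewer than 200 counts.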

Other observations

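The 5 genes outside the Hox clusters whose class levels were most like those of the anterior Hoxa genes included 3 transcription factor genes. Over 17 levels (class and library) and 14969 genes, the highest Pearson correlations of log2(CPM + 1) with the summed members were those of Nr2f1 (0.923), Khdrbs3 (0.922), Arl15 (0.913), Ebf3 (0.898) and Rora (0.897). Nr2f1 encodes an orphan nuclear receptor, Ebf3 a helix-loop-helix factor and Rora a nuclear receptor. Levels of Nr2f1 ran from 11.5 to 111 CPM. The points share their libraries and depth, so these values describe likeness across classes and no more.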
